A study of Mus musculus with 8 samples.

Results

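The coelomic epithelium is the mesothelial cell layer that lines the body cavity and covers the urogenital ridge. The 9 genes described here, Upk3b, Upk1b, Msln, Muc16, Krt7, Krt19, Gpm6a, Lrrn4 and Bnc1, are markers of that layer, and all 9 were found by gene name among the 48440 genes of the deposited tables. All 9 were detected in each of the 8 libraries. RNA was measured by polyadenylated RNA sequencing in mouse gonads at embryonic day 11.5, in 4 groups of 2 libraries: XY Kdm6b-null, XY wild type, XX Kdm6b-null and XX wild type. Each library pooled 2 pairs of gonads from embryos sexed and genotyped for Kdm6b, which encodes a histone demethylase that takes repressive methyl marks off histone H3. The labels describe neither the null allele nor the strain, and do not say whether the pools came from different litters. The labels name supporting cell precursors as the cell type, but the tissue is the whole gonad and no sorting is described. In whole tissue, fewer cells of a type and less RNA per cell cannot be told apart.

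In the early gonad the coelomic epithelium covers the surface, and some of its cells divide and move inward, where they contribute supporting cells and interstitial cells. Cells that stay outside continue as the surface epithelium, a mesothelium. Its proteins include uroplakins, which form plaques in cell membranes, simple-epithelium keratins, and the surface pair mesothelin and MUC16, which bind each other. Some of these genes are not exclusive to it: Krt7 and Krt19 are also made by duct epithelia, and Gpm6a is best known from neurons.

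All values are normalized counts, that is reads counted per gene and divided by the authors' size factor for the library, within each sex. Libraries held 19107103 to 19828638 counts, if the step between neighbouring values is read as 1 count. Kdm6b itself had 1238 and 1037 normalized counts in XY Kdm6b-null gonads, against 3399 and 3181 in XY wild type gonads. It had 1249 and 1125 in XX Kdm6b-null gonads, against 2218 and 2796 in XX wild type gonads, so it was lower in every null library than in either wild type library of the same sex. The labels do not say which part of the gene is altered, and these counts cover the whole gene. Wt1, a transcription factor made by both the coelomic epithelium and the gonad beneath it, lay between 3032 and 6297 in the 8 libraries. XX wild type replicate 1 stood apart in markers of neighbouring organs. Its 10 liver and gut genes summed to 14188 normalized counts, against 85.4 to 486 in the other 7 libraries, and its 10 adrenal genes to 2796, against 679.7 to 1036. Not every gene of these lists was raised. Afp alone gave 11142 of the liver and gut sum, while Cdx2 had 9.70, against 59.7 in XX wild type replicate 2. Of the adrenal genes, Mc2r lay within the range of the other XX libraries. Hnf4a and Nr0b1 lay within the range of the other libraries only if XY libraries are included. Among XX libraries, replicate 1 was the highest for both. Hnf4a had 127 there, against 90.0 in XX wild type replicate 2 and 15.9 and 65.7 in null libraries. Nr0b1 had 95.1, against 44.5 and, in null libraries, 76.7 and 90.9. XX wild type replicate 1 also lay outside the other 7 libraries in 3 further sums. The 9 keratins, Krt7 and Krt19 among them, summed to 4318, against 2533 to 3800. The 10 neuronal genes summed to 4612, against 3018 to 3683, and the 10 endothelial genes to 12376, against 13839 to 21606. Sums of the remaining lists lay within the range of the other 7. Each marker's change in XX gonads is therefore also given without that library.

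Promoter sequences were at hand for 6 of the 9 markers, as windows of 250 bases before to 50 bases after a RefSeq start (build GRCm38.p6). For Krt7 that start lies inside the gene's span in the files. Those of Krt7, Upk3b, Lrrn4 and Bnc1 are printed because these are the marker with the smallest p-value in XX gonads, the most abundant marker, the marker that was higher in XX Kdm6b-null gonads, and the transcription factor of the set. They are written 5′ to 3′ on the strand of the gene, with every CpG dinucleotide in capitals.
Krt7, chr15:101412153-101412452, plus strand: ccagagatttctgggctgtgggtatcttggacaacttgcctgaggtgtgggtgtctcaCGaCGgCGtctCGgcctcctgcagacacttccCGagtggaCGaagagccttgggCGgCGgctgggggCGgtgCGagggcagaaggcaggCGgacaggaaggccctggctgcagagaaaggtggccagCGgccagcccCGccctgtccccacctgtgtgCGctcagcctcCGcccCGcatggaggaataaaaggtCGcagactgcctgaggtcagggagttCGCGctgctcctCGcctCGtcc
Upk3b, chr5:136038246-136038545, plus strand: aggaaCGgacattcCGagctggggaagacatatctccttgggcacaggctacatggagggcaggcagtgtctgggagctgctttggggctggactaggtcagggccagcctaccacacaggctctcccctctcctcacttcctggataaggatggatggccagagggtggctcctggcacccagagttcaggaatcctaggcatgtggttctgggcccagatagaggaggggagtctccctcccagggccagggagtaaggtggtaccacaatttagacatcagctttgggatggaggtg
Lrrn4, chr2:132880813-132881112, minus strand: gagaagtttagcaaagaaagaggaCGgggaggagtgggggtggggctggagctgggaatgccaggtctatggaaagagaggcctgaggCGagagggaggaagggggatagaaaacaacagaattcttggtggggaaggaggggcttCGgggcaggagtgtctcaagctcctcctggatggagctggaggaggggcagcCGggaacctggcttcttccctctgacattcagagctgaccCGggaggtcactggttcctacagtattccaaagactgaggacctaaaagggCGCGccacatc
Bnc1, chr7:81992250-81992549, minus strand: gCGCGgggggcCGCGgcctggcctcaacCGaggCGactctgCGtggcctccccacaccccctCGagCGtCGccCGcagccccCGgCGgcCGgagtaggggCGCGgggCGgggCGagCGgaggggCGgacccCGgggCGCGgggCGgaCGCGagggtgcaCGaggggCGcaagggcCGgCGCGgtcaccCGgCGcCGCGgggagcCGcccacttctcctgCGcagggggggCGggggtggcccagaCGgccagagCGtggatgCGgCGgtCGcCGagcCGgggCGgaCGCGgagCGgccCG
The promoters were unlike in base composition. Bnc1 held 50 CpG dinucleotides, more than 99.1% of the 32851 windows in the table. Krt7 held 21, Lrrn4 7 and Upk3b 2, and the median over all windows was 7. The letters GGAATG, the core bound by TEAD factors, occurred on either strand in the windows of Upk3b and Lrrn4 and in 1 of the 2 windows of Gpm6a, and in 14.7% of all windows. AGATAA, the core bound by GATA factors, and AAGGTCA, the core bound by NR5A1, were in none of the 7 windows of the markers, against 11.2% and 4.72% of all windows. TATAAA was in 1 window, the second of Gpm6a, against 13.6% of all windows. No motif contains another, and the matches describe letters only.

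Levels of different genes were compared per kilobase of exon, with lengths from GENCODE M21, whose gene version matched that of the files for 6 of the 9 markers. Upk3b, the uroplakin that marks mesothelium, was the highest of the 9 in every library, at 353 to 629 normalized counts per kilobase. Bnc1, the zinc finger factor basonuclin 1, and Krt19, a type I keratin, lay at 159 to 301 and 159.6 to 290.3 per kilobase, and Lrrn4, a leucine-rich repeat membrane protein, at 116 to 229. The order of these 3 varied between libraries. Upk1b, a tetraspanin uroplakin, lay at 40.6 to 146 and Krt7, a type II keratin, at 58.3 to 150.4 per kilobase. Each length joins all annotated exons of the gene, and the gene version differed for Upk1b, Krt7 and Msln. For Krt7 the length was 7049 bases, against 1855 for Krt19. Krt7 had more normalized counts than Krt19 in every library, so its place below Krt19 rests on that length. Gpm6a, a membrane glycoprotein, was seventh in all 8 libraries at 26.3 to 46.5 per kilobase, and Muc16 was eighth at 8.13 to 29.3. Msln was last in all 8 libraries at 0.989 to 7.28 per kilobase. Only genes with a mean of at least 10 normalized counts over the 4 libraries of a sex were tested, and Msln, at 3.03 to 22.3 normalized counts, was the marker nearest to that limit.

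In XX Kdm6b-null gonads the mean of Krt7 was 49.3% of the wild type mean, that of Upk1b 42.0%, that of Muc16 43.5% and that of Msln 29.4%. Upk3b, the most abundant marker, was at 98.1% of wild type, and Lrrn4 was at 138%. Of the 9 markers, 5 (Upk1b, Msln, Krt7, Gpm6a and Muc16) were lower in both null libraries than in either wild type library, where 22.5% of the 17028 genes tested had groups apart in that direction. One marker, Lrrn4, was higher in both, where 27.0% of genes were. With a DESeq2 adjusted p under 0.05 in the authors' deposited table, 2 of the 8 markers that have one fell (Krt7 and Upk1b), where 0.823% of the 14704 genes with an adjusted p did, and 0 of 8 rose, where 1.95% did. Msln has no adjusted p there. By limma 0 of the 9 passed, as did 0% of the genes tested. At an unadjusted limma p under 0.05, 4 of the 9 were lower, where 4.65% of genes were, and 1 was higher, where 9.34% were, among 2383 genes in all. Both counts of lower markers include Msln, which passed the filter through its wild type libraries only. Without Msln, 4 of 8 had groups apart and 3 of 8 an unadjusted p under 0.05. The median log2 fold change of the 9 was -0.54, against 0.00068 over all genes tested, and 7 of the 9 were negative. With a filter at a mean of 50, which drops Msln, that median was -0.35. Without XX wild type replicate 1 the median was -0.02. The filter was still set with that library included. Msln therefore stayed in this median, with 7.97 and 3.03 normalized counts in the null libraries and 15.2 in the remaining wild type library. Then 5 markers were below the remaining wild type library, where 38.1% of genes were. Another 2, Lrrn4 and Krt19, were above it, where 40.3% of genes were. The 5 again include Msln, and also Muc16, which had 214 and 217 normalized counts in the null libraries against 218.

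**Figure D1:**
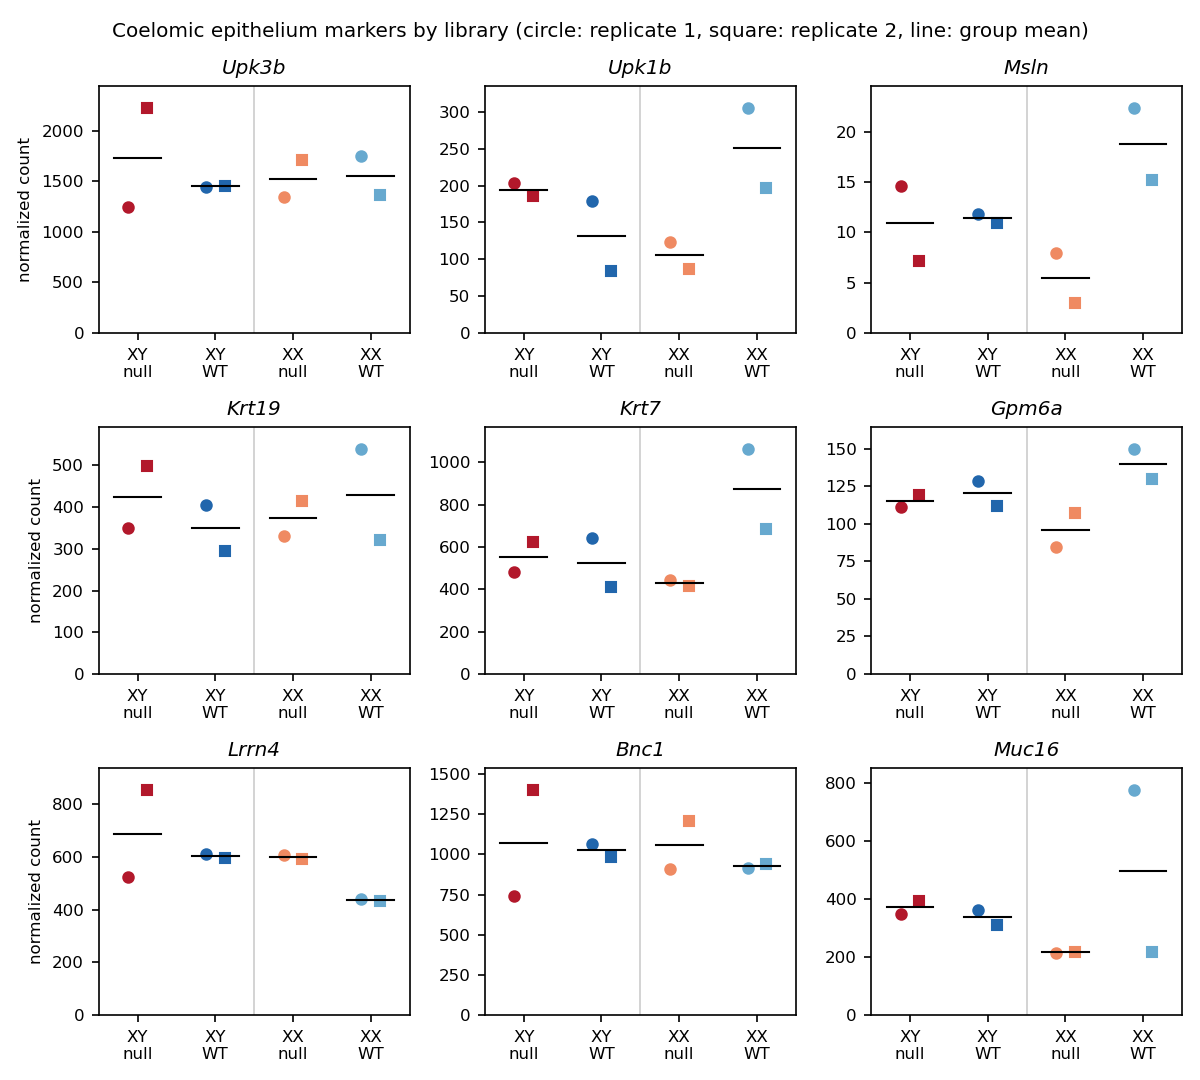
Normalized counts of the 9 markers in each library, with the 4 groups on the horizontal axis (null left of wild type, XY left of XX), 1 point per library and a line at the group mean; each vertical axis starts at 0. Krt7 lies at 443 and 417 in XX null libraries, below 1060 and 686 in XX wild type libraries, and Muc16 is high in 1 XX wild type library only, at 773.

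Krt7 (ENSMUSG00000023039.16, chr15:101411043-101430313, plus strand, GRCm38), a filament protein of simple and ductal epithelia, had 443 and 417 normalized counts in XX Kdm6b-null gonads, against 1060 and 686 in XX wild type gonads. The groups did not overlap, and the null libraries lay close together while the wild type libraries did not. The log2 fold change was -0.99 (SE 0.22, 95% interval -1.54 to -0.44, limma adjusted p = 0.26). In the authors' deposited table it was -1.02 with a DESeq2 adjusted p of 0.0039. Without XX wild type replicate 1 it was -0.67, and without XX wild type replicate 2 it was -1.30. Over the 10 alternatives that kept all libraries it lay between -1.07 and -0.98. In XY gonads Krt7 had 484 and 625 in Kdm6b-null libraries, against 640.0 and 411 in wild type libraries. There the groups overlapped, with a log2 fold change of 0.10 (95% interval -0.50 to 0.70). GENCODE M21 annotates an antisense transcript, Gm671, across Krt7, and reads of both cannot be told apart unless the counting used strand, which no source here states.

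Upk1b (ENSMUSG00000049436.4, chr16:38773184-38800203, minus strand, GRCm38), the tetraspanin partner in uroplakin plaques, had 124 and 86.9 normalized counts in XX Kdm6b-null gonads, against 305 and 196 in XX wild type gonads. The null mean was 42.0% of the wild type mean, with no overlap. The log2 fold change was -1.23 (SE 0.29, 95% interval -1.97 to -0.49, limma adjusted p = 0.26), and in the authors' deposited table -1.25 with a DESeq2 adjusted p of 0.027. Without XX wild type replicate 1 it was -0.91, and without XX wild type replicate 2 it was -1.55. Over the 10 alternatives that kept all libraries it lay between -1.31 and -1.20. In XY gonads the order was turned round: Upk1b had 203 and 186 in Kdm6b-null libraries, against 179 and 84.7 in wild type libraries. The groups did not overlap in XY either, but the upper wild type library lay just under the null ones, and the log2 fold change was 0.65 (SE 0.36, 95% interval -0.25 to 1.55, limma adjusted p = 1.00). It was 0.12 when XY wild type replicate 2 was left out, and 1.19 when replicate 1 was.

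Upk3b (ENSMUSG00000042985.7, chr5:136038496-136046487, plus strand, GRCm38), by contrast with its relative Upk1b, had 1342 and 1711 normalized counts in XX Kdm6b-null gonads, against 1749 and 1365 in XX wild type gonads. The groups covered each other almost fully, and the log2 fold change was -0.03 (95% interval -0.47 to 0.42), or 0.15 without XX wild type replicate 1. In XY gonads it had 1248 and 2221 in Kdm6b-null libraries, against 1445 and 1455 in wild type libraries. The wild type libraries were alike and the null libraries lay on either side of them, so that the log2 fold change of 0.20 (95% interval -0.45 to 0.85) was -0.22 without XY Kdm6b-null replicate 2 and 0.61 without XY Kdm6b-null replicate 1.

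Msln (ENSMUSG00000063011.6, chr17:25748614-25754327, minus strand, GRCm38), the surface glycoprotein mesothelin, had 7.97 and 3.03 normalized counts in XX Kdm6b-null gonads, against 22.3 and 15.2 in XX wild type gonads. The groups did not overlap, but these are few reads: the log2 fold change was -1.69 with a 95% interval of -3.21 to -0.17 (limma adjusted p = 0.34), and the gene passed the filter in XX through the wild type libraries. It was -1.43 without XX wild type replicate 1. In XY gonads it had 14.6 and 7.21 in Kdm6b-null libraries, against 11.9 and 10.97 in wild type libraries, with overlap. Muc16 (ENSMUSG00000109564.1, chr9:18495455-18674530, minus strand, GRCm38), the large mucin that binds mesothelin, had 214 and 217 in XX Kdm6b-null gonads, against 773 and 218 in XX wild type gonads. Here 1 library set the difference, since the other 3 lay together: the log2 fold change was -0.93 (SE 0.57, limma adjusted p = 0.50) with all 4 libraries and -0.02 without XX wild type replicate 1. It was -1.84 without XX wild type replicate 2, which left replicate 1 as the only wild type library. In XY gonads Muc16 had 347 and 394 in Kdm6b-null libraries, against 361 and 311 in wild type libraries, a log2 fold change of 0.14 (95% interval -0.20 to 0.48).

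**Figure D2:**
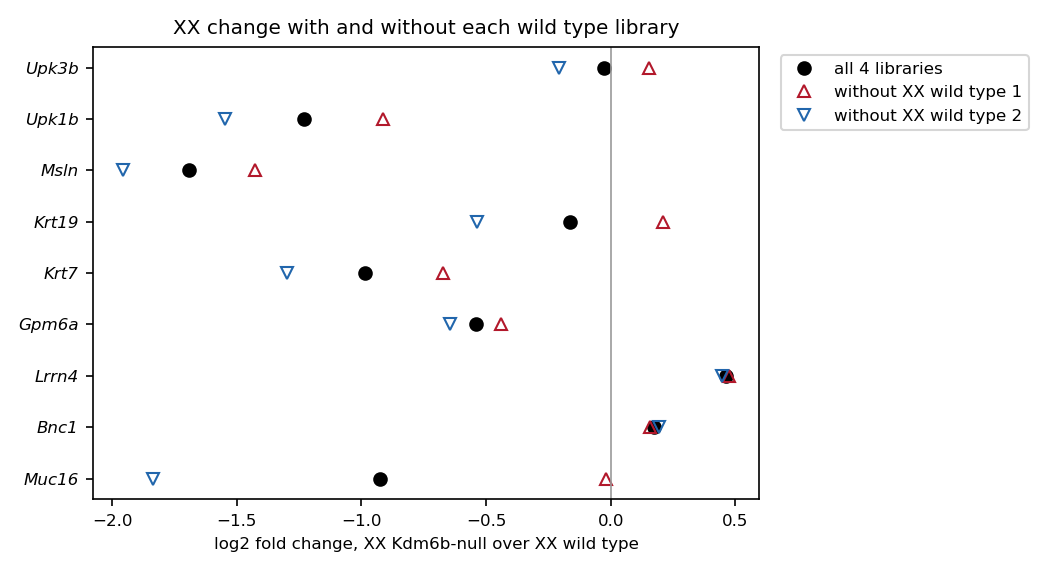
Log2 fold change of each marker, XX Kdm6b-null over XX wild type, with all 4 libraries (filled circles), without XX wild type replicate 1 (upward triangles) and without XX wild type replicate 2 (downward triangles). Lrrn4 stays between 0.45 and 0.47, Krt7 lies at -0.67 and -1.30, and Muc16 at -0.02 and -1.84.

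Lrrn4 (ENSMUSG00000043110.2, chr2:132868305-132880891, minus strand, GRCm38) was the marker whose XX null libraries both lay above wild type, with 607 and 593 normalized counts in Kdm6b-null libraries, against 439 and 432 in wild type libraries. The libraries of each group were nearly equal and the groups stood clear of each other. The null mean was 138% of the wild type mean, and the log2 fold change was 0.46 (SE 0.11, 95% interval 0.19 to 0.73, limma adjusted p = 0.26). The authors' deposited table gave 0.46 with a DESeq2 adjusted p of 0.19. Leaving out any 1 library moved it only between 0.44 and 0.48. In XY gonads Lrrn4 had 525 and 852 in Kdm6b-null libraries, against 609 and 595 in wild type libraries, so the null libraries again lay on either side of the wild type ones (log2 fold change 0.15, 95% interval -0.42 to 0.72).

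Gpm6a (ENSMUSG00000031517.8, chr8:54954843-55060871, plus strand, GRCm38), a glycoprotein of neuronal and mesothelial membranes, had 84.7 and 107 normalized counts in XX Kdm6b-null gonads, against 149 and 129 in XX wild type gonads. The groups did not overlap (log2 fold change -0.54, 95% interval -1.08 to -0.00044, limma adjusted p = 0.36). It was -0.44 without XX wild type replicate 1. The 10 neuronal genes examined beside it summed to 3683 and 3018 in XX Kdm6b-null gonads, against 4612 and 3444 in XX wild type gonads, and 9 of the 10 had negative log2 fold changes. Their part in the Gpm6a difference was not tested. In XY gonads Gpm6a had 111 and 119 in Kdm6b-null libraries, against 129 and 112 in wild type libraries, which overlapped.

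Krt19 (ENSMUSG00000020911.14, chr11:100140810-100148665, minus strand, GRCm38), the keratin that forms filaments with type II keratins, had 332 and 415 normalized counts in XX Kdm6b-null gonads, against 538 and 321 in XX wild type gonads. The groups overlapped, and the log2 fold change of -0.16 (95% interval -0.85 to 0.53) was 0.21 without XX wild type replicate 1. In XY gonads it had 350.2 and 499 in Kdm6b-null libraries, against 405 and 296 in wild type libraries (log2 fold change 0.27, 95% interval -0.30 to 0.85). Leaving out 1 library moved it between 0.017 (without XY Kdm6b-null replicate 2) and 0.53 (without XY Kdm6b-null replicate 1). Bnc1 (ENSMUSG00000025105.9, chr7:81966672-81992292, minus strand, GRCm38), which regulates transcription in epithelia and germ cells, had 911 and 1205 in XX Kdm6b-null gonads, against 917 and 939.7 in XX wild type gonads (log2 fold change 0.17, 95% interval -0.21 to 0.56, or 0.16 without XX wild type replicate 1). In XY gonads it had 740.4 and 1398 in Kdm6b-null libraries, against 1065 and 986 in wild type libraries, which gave -0.01 (95% interval -0.73 to 0.71). Neither gene had groups apart in either sex. The pseudogene 4833418N17Rik, on the opposite strand across Bnc1, had at most 14.0 normalized counts.

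In XY gonads the log2 fold changes of the markers lay on both sides of 0. Upk1b, 1 of the 9, was higher in both null libraries than in either wild type library, where 16.6% of the 16821 genes tested were, and 0 of 9 were lower, where 16.3% were. By limma 0 of 9 passed, as did 0% of genes, and at an unadjusted p under 0.05 the markers gave 0 higher and 0 lower, where 2.11% and 2.85% of genes did (834 genes in all). No marker rose or fell in the authors' deposited table (DESeq2, 0 of 9 in each direction), where 0.123% of genes rose and 0.279% fell. The median log2 fold change was 0.14, with 6 of 9 positive, against -0.00013 over all genes tested. That median rested on XY Kdm6b-null replicate 2: without it the median was -0.08, and without XY Kdm6b-null replicate 1 it was 0.45. Summed over the 9 markers, XY Kdm6b-null libraries held 4023 and 6302 normalized counts, against 4845 and 4262 in XY wild type libraries. The same sum was 4066 and 4756 in XX Kdm6b-null libraries, against 5954 and 4302 in XX wild type libraries. XY Kdm6b-null replicate 2 was the highest library of its sex for 5 of the 9 markers (Upk3b, Krt19, Lrrn4, Bnc1 and Muc16), and the lowest for Msln. The 10 red cell genes summed to 70412 and 214067 normalized counts in XY Kdm6b-null libraries, against 61398 and 105054 in XY wild type libraries, so the same library was also the highest in red cell transcripts. Their part in the marker values was not tested.

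**Figure D3:**
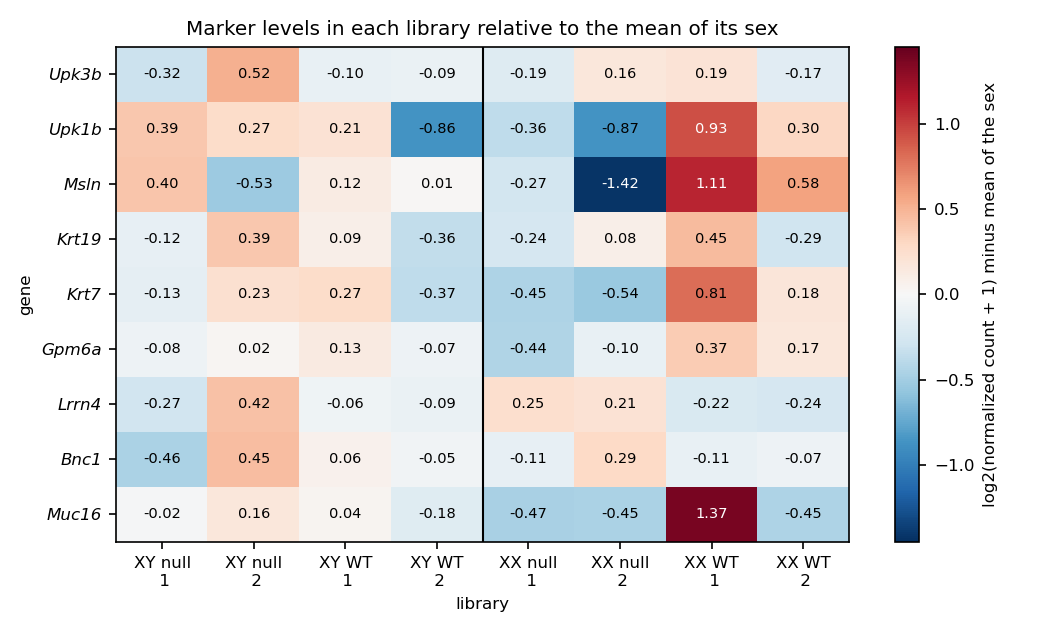
Log2(normalized count + 1) of each marker (rows) in each library (columns), minus the mean of the 4 libraries of that sex, with red above and blue below that mean. XX wild type replicate 1 is the most positive XX library for 7 of the 9 markers, and XY Kdm6b-null replicates 1 and 2 lie on opposite sides of the mean for 8 of the 9, all but Upk1b.

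The difference between the sexes in the response to the null genotype was tested for each marker as the XY change minus the XX change. The XX and XY tables were normalized separately, so levels were not tested across sexes, and ranges over libraries of both sexes only describe. A scale factor between the tables cancels in the XY change minus the XX change. It was 1.88 for Upk1b (SE 0.52, 95% interval 0.67 to 3.10, limma adjusted p = 0.57), or 1.57 without XX wild type replicate 1. It was 1.09 for Krt7 (SE 0.37, 95% interval 0.22 to 1.95, limma adjusted p = 0.57), or 0.77 without that library. By limma 0 of the 9 passed, as did 0% of 16943 genes. At an unadjusted p under 0.05, 2 of the 9 had a positive difference, where 2.70% of genes did, and 0 a negative one, where 5.71% did (1425 genes in all). The difference for Muc16 was 1.07, and leaving out 1 library moved it between 0.16 and 1.98, the latter without XX wild type replicate 2. With groups apart in both sexes, 1 marker (Upk1b) was lower in XX and higher in XY null gonads, where 2.59% of genes were, and 0 were higher in XX and lower in XY, where 2.60% were. The difference for Upk3b was 0.23 (95% interval -0.62 to 1.07) and for Bnc1 -0.19 (95% interval -1.07 to 0.70), wide enough to hold changes of either direction. Over the 9 markers the median difference was 0.49, against -0.02 over all genes tested, and 7 were positive. Without XX wild type replicate 1 the median difference was 0.16.

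**Figure D4:**
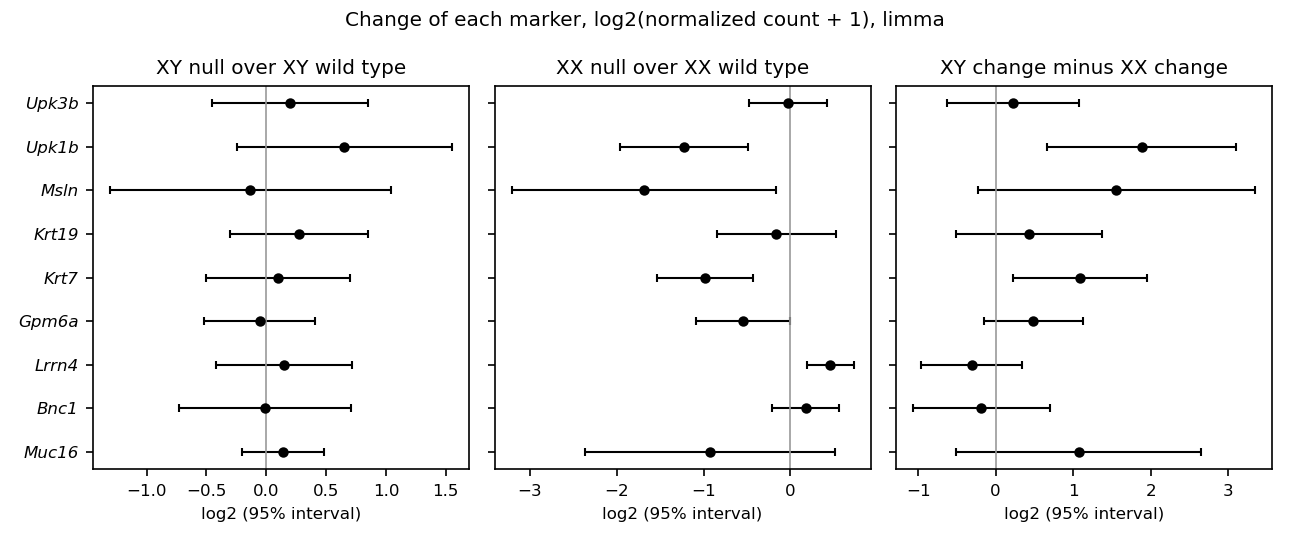
Points give the log2 fold change of each marker on the log2(normalized count + 1) scale with its unadjusted 95% interval by limma, for XY Kdm6b-null over XY wild type (left), XX Kdm6b-null over XX wild type (middle) and the XY change minus the XX change (right); the 3 horizontal axes differ in range. In XX the intervals of Krt7 (-1.54 to -0.44), Upk1b (-1.97 to -0.49), Msln (-3.21 to -0.17) and Gpm6a (-1.08 to -0.00044) lie below 0. That of Lrrn4 (0.19 to 0.73) lies above it.

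The markers did not vary as 1 unit between libraries. After each sex was centred on its mean, the 36 pairs of markers had Pearson correlations over the 8 libraries from -0.78 to 0.89, with a median of 0.50 and 27 positive. Without XX wild type replicate 1 they ran from -0.76 to 0.93 with a median of 0.31, and 27 were positive. The libraries of a sex share their normalization and a centring, and these values are a description. The highest value over 8 libraries was that of Upk1b with Krt7 (0.89, and 0.84 without XX wild type replicate 1), and the highest without that library was that of Upk3b with Bnc1 (0.83 and 0.93). Krt7 and Gpm6a had 0.87 and 0.77, and Lrrn4 and Bnc1 had 0.77 and 0.78. Krt19 had 0.79 with Upk3b, 0.74 with Muc16 and 0.66 with Krt7 over 8 libraries. Upk3b had 0.11 with Upk1b and 0.34 with Krt7, and the lowest value was that of Lrrn4 with Msln. Of 12080 other named genes with a mean of at least 50 in both sexes, those with the highest correlation to the mean profile of the 9 markers were Uchl1 (0.99), Ptdss1 (0.99), Plgrkt (0.98), Tcf19 (0.98) and Nqo1 (0.98). Without XX wild type replicate 1 these genes had 0.99, 0.98, 0.96, 0.95 and 0.94. Those most like Upk3b alone were Uqcc2 (1.00), Ncoa4 (0.98), Rita1 (0.96), Shfm1 (0.95) and Anapc10 (0.95), with 0.999, 0.98, 0.97, 0.95 and 0.94 without that library. All were picked as the highest of 12080 genes over 8 libraries, so high values follow partly from that choice. Whether these genes share cells with the markers was not tested.

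Other genes of mesothelium and surface epithelium gave a mixed picture. Of 20 listed, 16 were measured above the filter, and 0 passed by limma in either sex. At an unadjusted limma p under 0.05 there were 3 in XX, where 9.34% of all genes were higher and 4.65% lower. There were 0 in XY, where 2.11% were higher and 2.85% lower. Of the 16, 8 had positive and 8 negative log2 fold changes in XX gonads (median 0.01). In the authors' deposited table Cdh3, a classical cadherin, rose in XX (0.68, DESeq2 adjusted p = 0.0026), where 1.95% of genes did. Cav1, the coat protein of caveolae, fell (-0.64, DESeq2 adjusted p = 0.038), where 0.823% did. Cdh3 had 3374 and 3816 normalized counts in XX Kdm6b-null gonads, against 2033 and 2465 in XX wild type gonads. The genes of smallest p by limma in XX were Cdh3 (0.68) and Nkain4 (-0.95), a protein that interacts with the sodium pump. In XY gonads 7 were positive and 9 negative with a median of -0.05, and the genes of smallest p were Krt14 (-0.47) and Cldn1 (0.37). Krt8 and Krt18, the keratin pair of simple epithelia, had log2 fold changes of -0.27 and -0.26 in XX and of -0.09 and 0.0026 in XY.

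Among the uroplakins 3 of 6 were measured above the filter. Upk1a, a paralog of Upk1b, had 46.8 and 56.6 normalized counts in XX Kdm6b-null gonads, against 22.3 and 56.6 in XX wild type gonads. It had 57.6 and 48.4 in XY Kdm6b-null gonads, against 30.7 and 19.9 in XY wild type gonads, a log2 fold change of 1.06 (limma adjusted p = 0.87). Upk2 and Upk3a, which build plaques in the bladder, were at or near 0, with at most 5.9 and 0.97 normalized counts. The 10 transcription factors of the gonadal epithelium gave 7 positive and 3 negative log2 fold changes in XX (median 0.18) and 3 positive and 7 negative in XY (median -0.17), with 0 passing by limma. In the authors' deposited table Emx2 rose in XX, where 1.95% of genes did. Lhx9 fell in XY (-0.96, DESeq2 adjusted p = 3.4e-05), where 0.279% of genes did.

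The 15 mesonephric and duct genes, whose epithelia also make keratins, had 10 positive and 5 negative log2 fold changes in XX (median 0.20) and 9 positive and 6 negative in XY (median 0.01). They summed to 8088 and 7118 normalized counts in XX Kdm6b-null gonads, against 7287 and 6689 in XX wild type gonads, and to 7985 and 10242 in XY Kdm6b-null gonads, against 9692 and 8488 in XY wild type gonads. None of the 15 was at 0 in any library. The duct sums of null and wild type overlapped in both sexes. Their part in the keratin values was not tested. The 10 adrenal genes had a median of -1.19 and the 10 liver and gut genes of -2.46 in XX. Several of these genes passed the filter in XX through XX wild type replicate 1. Cyp21a1 of the adrenal list is an example, as are Fgb and Ahsg of the liver and gut list. Fgb and Ahsg had 167 and 93.1 normalized counts there, against 9.10 and 0 in XX wild type replicate 2. Both medians therefore rest in part on that library, and they are not given without it. With an adjusted p in the authors' deposited table for 8 genes of each list, Cyp21a1 and Cyp11b1 of the first and Ttr, Apoa1, Alb and Afp of the second fell (DESeq2), where 0.823% of all genes did. All of these were highest in XX wild type replicate 1. XX wild type replicates 1 and 2 had 189 and 4.05 normalized counts of Cyp21a1, and 417 and 7.08 of Cyp11b1. They had 900 and 104 of Ttr, 1398 and 43.5 of Apoa1, 116 and 15.2 of Alb, and 11142 and 150 of Afp. For each gene both XX Kdm6b-null libraries lay below both. Cyp21a1 of the adrenal list was at 0 in 1 library, as were Fgb, Alb, Serpina1a, Cdx2 and Ahsg of the liver and gut list in at least 1 library each. Their part in the XX values of the markers was not tested. Markers of other cell types gave these log2 fold changes in XX: endothelial genes were positive in 10 of 10 (median 0.44), red cell genes negative in 8 of 10 (median -0.41), macrophage genes negative in 9 of 10 (median -0.27) and germ cell genes negative in 7 of 10 (median -0.30). In XY the medians of those lists were -0.23, 0.45, 0.36 and 0.36. The XX values of these lists include XX wild type replicate 1 and are not given without it. The endothelial sum was 12376 in that library and 13839 in XX wild type replicate 2, against 18811 and 18604 in XX Kdm6b-null libraries.

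Of these lists of other cell types, 0 genes passed by limma in either sex. In the authors' deposited table (DESeq2), the endothelial genes Plvap, Cdh5 and Tie1 and the germ cell gene Kit rose in XX, where 1.95% of genes did, and the red cell genes Hbb-y, Hba-a1 and Alas2 fell, where 0.823% did. In XY the macrophage gene Csf1r and the neuronal gene Dcx rose, where 0.123% did. The 2 genes of smallest limma p in XX, with their log2 fold changes, were Plvap (0.93) and Cdh5 (0.80) among endothelial genes, Hba-a1 (-1.25) and Hbb-y (-1.11) among red cell genes, and Mrc1 (-0.43) and C1qb (-0.35) among macrophage genes. They were Kit (0.91) and Sox2 (-0.37) among germ cell genes, Dcx (-0.33) and Elavl4 (-0.30) among neuronal genes, and Emx2 (0.61) and Gata3 (0.83) among duct genes. In the adrenal list they were Mc2r (0.86) and Fdx1 (-0.49), and in the liver and gut list Ttr (-5.18) and Fgb (-5.36).

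In XY the corresponding genes were Tek (-0.48) and Cldn5 (-0.24) among endothelial genes, Hba-a1 (1.01) and Slc4a1 (0.67) among red cell genes, and Csf1r (0.73) and Cx3cr1 (0.49) among macrophage genes. They were Kit (0.44) and Ddx4 (1.36) among germ cell genes, Dcx (1.09) and Th (-0.88) among neuronal genes, and Pax2 (0.39) and Lhx1 (-0.27) among duct genes. In the adrenal list they were Nr0b1 (-0.84) and Cyp11a1 (-1.14), and in the liver and gut list Hnf4a (-0.90) and Afp (-1.26). Among the 10 gonadal epithelium factors they were Lhx9 (-0.95) and Nr5a1 (-0.86) in XY and Emx2 (0.61, the same gene as in the duct list) and Cbx2 (0.51) in XX. Among the 9 simple-epithelium and related keratins, of which 7 were above the filter, they were Krt15 (-0.98) and Krt14 (-0.47) in XY and Krt7 (-0.99) and Krt14 (-1.33) in XX. Those 7 had 3 positive and 4 negative log2 fold changes in XY (median -0.09) and 1 positive and 6 negative in XX (median -0.27).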

How the data were processed

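The members and gene lists were chosen with earlier results of these data known. Some genes, such as Emx2 and Wt1, are in more than 1 list. Per the submitters' processing notes, the authors used DESeq2 2.11.40.8, featureCounts 2.0.8, STAR 2.7.11 and cutadapt 4.9 with GRCm38. No source used here gives the annotation release, the strand setting or the handling of multimapped reads. The deposited signal values are gene counts that the authors divided by 1 size factor per library, separately for XX and XY. The authors' deposited DESeq2 tables give a log2 fold change, its standard error, a p-value, an adjusted p-value and a Wald score, the last not used; the XX table has no header and was read in the column order of the XY table. In each library 100% of nonzero values were whole multiples of 1 step (0.970 to 1.03, tolerance 1e-06 of a step); no count model was run, because a check for recovered reads did not accept the steps closest to 1. The step served for depth only, and intervals in the text cover the spread between libraries.

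The values were analysed as log2(normalized count + 1) by limma (version 3.58.1, R version 4.3.3) with a variance trend, over genes with a mean of at least 10 across the libraries of the comparison, with Benjamini-Hochberg adjustment at 0.05. This scale understates changes of low genes. Groups and replicate numbers came from the titles, each fit had genotype as its only term within a sex, and the difference between sexes used all 8 libraries. Residual degrees of freedom were 2 within a sex and 4 for the difference. The scripts were tested on simulated data. Replicate libraries differed by more than sampling noise in every group (median chi-square per gene 1.27 to 4.07). Since nothing says the pools came from separate litters, p-values measure the spread between these pools. All 9 members are named, with the 2 genes of smallest p and the authors' calls in the other lists. The 5 genes most like the members passed over predicted genes. Alternatives covered pseudocount, filter, scaling, block, variance trend, fit on all libraries, the authors' DESeq2 table and leaving out each library. When a library was left out, the filter was kept as set with that library included.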

Additional observations from a re-analysis of the deposited data

Results flagged for a closer look

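Upk1b was lower in both XX Kdm6b-null libraries than in either XX wild type library (124 and 86.9, against 305 and 196 normalized counts) and higher in both XY Kdm6b-null libraries than in either XY wild type library (203 and 186, against 179 and 84.7). Of 16943 genes, 2.59% had groups apart in these opposite directions. The XY log2 fold change was 0.12 when XY wild type replicate 2 was left out, and 1.19 when replicate 1 was. The XY change minus the XX change was 1.88 on the log2 scale (limma adjusted p = 0.57). It lay between 1.35 and 2.42 when any 1 library was left out.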

How the results depend on the processing

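Genes called by limma numbered 0 in XY, 0 in XX and 0 for the difference between them. In XY they were 23 with the replicate block, 1 without the variance trend, 72 in the authors' deposited DESeq2 table and 0 to 2 without 1 library. In XX they were 2 with the replicate block, 10 with all 8 libraries in 1 fit, 407 in the authors' deposited table and 0 to 3489 without 1 library (370 when XX wild type replicate 1 was left out and 3489 for replicate 2). For the difference they were 0 to 29 without 1 library. The cause was not tested. The replicate numbers share only a label: deviations of same-numbered libraries correlated at 0.24 in XY and -0.06 in XX, and under the block none of the 9 markers passed. A library left alone in its group was assumed to vary like the others. The median of the markers lay between -0.084 and 0.45 in XY and between -0.71 and -0.018 in XX without 1 library. The XX range includes Msln throughout. Markers apart from wild type in XX were 5 lower and 1 higher, and 5 and 2 without XX wild type replicate 1, an alternative chosen after seeing the data.

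Direction turned without 1 library for these markers, all with intervals that held 0. In XY the ranges were -0.22 to 0.61 for Upk3b, -0.60 to 0.33 for Msln, -0.22 to 0.42 for Krt7, -0.20 to 0.50 for Lrrn4, -0.16 to 0.045 for Gpm6a and -0.47 to 0.45 for Bnc1, which was 0.060 in the authors' deposited table. In XX they were -0.21 to 0.15 for Upk3b, -0.54 to 0.21 for Krt19 and -0.027 to 0.38 for Bnc1. For the difference they were -0.66 to 0.040 for Lrrn4, -0.64 to 0.27 for Bnc1 and -0.19 to 0.64 for Upk3b. Pseudocount, filter and scaling turned no marker and made none pass, and a filter at a mean of 50 left no value for Msln, where depth limits most, so that the XX median of the other markers was -0.35.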
